A study of Mus musculus with 18 samples.

Results

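The genes described here encode subunits of SF3a and SF3b, the protein complexes that complete the U2 small nuclear ribonucleoprotein (U2 snRNP) of the spliceosome. They were taken by name, with no measured value of this contrast used to choose them, but with earlier results of these data known. The members are Sf3a1, Sf3a2 and Sf3a3 for SF3a, and Sf3b1, Sf3b2, Sf3b3, Sf3b4 and Sf3b5 for SF3b, 8 of the 55401 genes in the mRNA count files. The study compared XPO4 KO cells, made from NIH/3T3, with wild-type (WT) NIH/3T3 cells. NIH/3T3 is an established line of mouse embryonic fibroblasts, grown here in DMEM with serum. XPO4 is an exportin, a carrier that takes cargo out of the nucleus. The knockout was made with CRISPR-Cas9 and was 1 edited line, so that genotype and cell line cannot be told apart. The labels give no treatment for either line. Total RNA from each gave 3 mRNA-seq libraries, and RNase R-treated RNA from nucleus, cytoplasm and whole cells gave 12 circRNA libraries, 2 of each genotype and fraction. Nothing in the labels says that the libraries of a genotype came from separate cultures, so the p-values measure the spread between these libraries, which may be technical.

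The U2 snRNP recognizes the branch point, the intron base, usually an adenosine, that makes the first cut of splicing. SF3a and SF3b hold the U2 RNA on the pre-mRNA around that base, and SF3b closes over the bulged adenosine. CircRNAs arise when a downstream splice donor is joined to an upstream acceptor, a reaction called backsplicing that needs the same machinery. Short supply of core spliceosome components is known to favor circRNAs over linear mRNA at some genes, and the study used knockdown of Sf3a1 as a means to raise circRNA output.

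The following sequences show where backsplicing took place within the members' own transcripts. Find_circ, a program that searches for reads across a backsplice junction, listed 10 circRNAs inside 3 members, with 333 junction reads over the 12 libraries. The 5 shown are the most read circles of Sf3b3 and Sf3a2 and both Sf3a1 circles with at least 10 reads. Each line runs 5′ to 3′ in the sense of the gene, 25 bases from the last exon of the circle in lower case and then the first 25 bases of its first exon in capitals.
Sf3b3 exons 16 to 17, chr8:110820707-110821590, minus strand: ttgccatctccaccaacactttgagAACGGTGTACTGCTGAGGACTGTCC
Sf3b3 exons 18 to 20, chr8:110815903-110817718, minus strand: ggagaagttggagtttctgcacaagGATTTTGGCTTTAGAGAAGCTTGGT
Sf3a2 exons 7 to 8, chr10:80803583-80803888, plus strand: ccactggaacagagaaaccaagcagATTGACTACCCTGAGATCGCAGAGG
Sf3a1 exons 2 to 3, chr11:4161046-4166703, plus strand: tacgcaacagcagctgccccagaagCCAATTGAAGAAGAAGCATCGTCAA
Sf3a1 exons 3 to 4, chr11:4166496-4167890, plus strand: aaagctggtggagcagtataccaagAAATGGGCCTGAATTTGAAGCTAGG

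All coordinates are on GRCm38, and exons are numbered in the principal annotated transcript. Of the 10 circRNAs, 9 had both ends on exon edges. The intron in front of each circle shown ended in AG, and the bases behind it began with GT, the usual splice acceptor and donor. The last 20 bases of the intron in front of 3 of these circles are given because U2 components assemble upstream of this stretch, with the AG in capitals.
Sf3b3 before exon 16: tgttccatcttttccactAG
Sf3a1 before exon 2: ccttttctctgttttcacAG
Sf3a2 before exon 7: gtgctgtgcatgttttacAG
Of the 18 bases before the AG, 15 were pyrimidines in front of the Sf3b3 circle, 16 in front of the Sf3a1 circle and 11 in front of the Sf3a2 circle.

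The mRNA libraries held between 16974062 and 22057323 counted reads. One matter touches every direction given here. The sample titles and output names assign each mRNA library to a genotype, but the input alignment named inside each file carries the other genotype. The titles were followed, and WT and KO below mean libraries labelled so. If the input names were right, each KO-to-WT difference in mRNA would have the opposite sign. Xpo4 mRNA did not settle this, with counts of 657, 614 and 685 in the WT libraries and 712, 504 and 687 in the KO libraries. Its level was 2.97 ± 0.0979 FPKM in WT and 3.37 ± 0.651 in KO (SD, n = 3 each), a log2 fold change of 0.18 (SE 0.110) with an adjusted p of 0.193 by edgeR. Without KO replicate 2 it was 0.34 with an adjusted p of 0.000252, higher in the libraries labelled KO. That library stood apart from the others of its group, with a chi-square per gene of 10.3 and 12.0 against them where the other 2 KO libraries gave 3.62 between themselves. Of 7 tested genes on chromosome Y, 6 were higher in the libraries labelled KO, with a median fitted log2 fold change of 10.0. What this says of the labels or of the descent of the lines was not tested. Summed levels of 7 fibroblast markers were 2598 to 2690 FPKM in WT and 2703 to 2789 in KO, while the 4 epithelial markers summed to at most 0.128 FPKM, with Epcam and Krt18 at 0 in every library. The 3 endothelial markers summed to at most 0.110 FPKM in either genotype, the 3 neuronal markers to at most 2.23, and the 4 blood markers to 4.04 to 5.90 in WT and 2.97 to 3.89 in KO, mostly from Cd68.

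All 8 members were expressed well above the filter on low counts, and as many of them rose as fell between WT and KO. Sf3a2 and Sf3b5 rose in KO, Sf3b1 and Sf3b3 fell, and Sf3a1, Sf3a3, Sf3b2 and Sf3b4 did not pass the test. Among all 14688 genes tested 48.7% passed the same threshold, set at 0.05 on the adjusted p, with 25.1% higher in KO and 23.6% lower, so 4 of 8 members called is near the share of genes in general. The median log2 fold change of the members was -0.017, against -0.00293 for all genes tested. In 7 of 8 members the 3 KO and 3 WT libraries did not overlap, as was the case for 57.8% of all genes. Levels are given as FPKM, the usual scaling of counts by exon length and by the total counted reads of the library. In a bulk sample, a lower share of cells making an RNA and less of it per cell cannot be told apart.

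**Figure D1:**
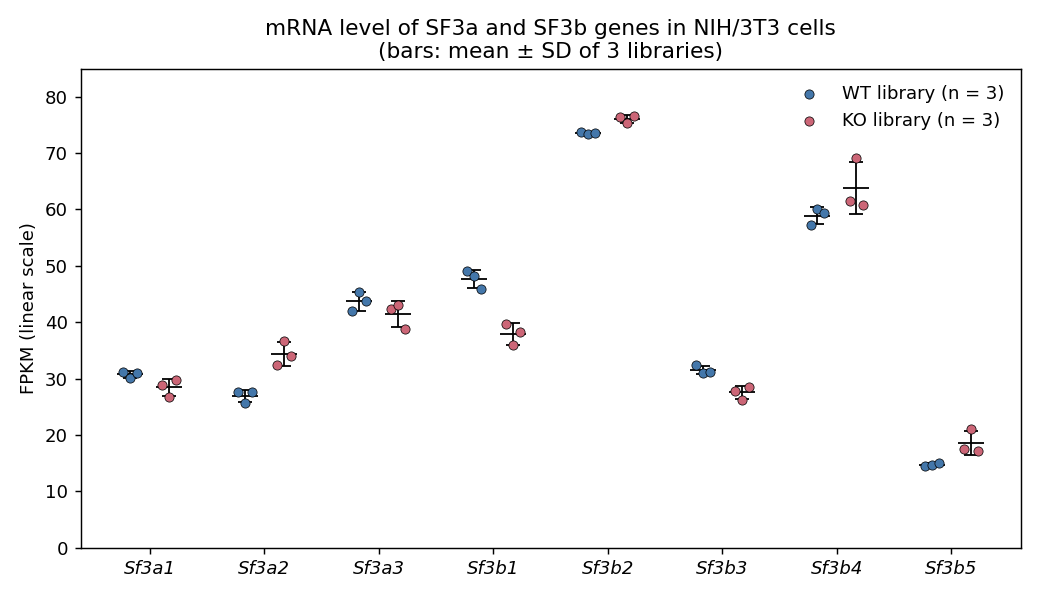
Level of the 8 SF3a and SF3b mRNAs in FPKM on a linear axis, with 1 point per library (3 WT in blue, 3 KO in red) and bars for the mean ± SD. The WT and KO points overlap only for Sf3a3; Sf3b1 and Sf3b3 lie lower in KO, and Sf3a2 and Sf3b5 higher.

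Sf3a1, the largest SF3a subunit, carries paired SURP domains and a ubiquitin-like domain (Sf3a1, ENSMUSG00000002129.11, chr11:4160350-4182541, plus strand, 16 exons). Its level was 31.2, 30.1 and 31.0 FPKM in the WT libraries and 28.9, 26.8 and 29.7 in the KO libraries. Each KO library lay below each WT library. The log2 fold change of -0.11 (SE 0.0552, 95% confidence interval -0.23 to 0.01) had an adjusted p of 0.106 in the edgeR fit, so the difference did not pass the threshold, and the interval reaches from a fold of 0.851 to one of 1.00.

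Sf3a2 encodes the zinc finger subunit that sits next to the U2 RNA (ENSMUSG00000020211.15, chr10:80798198-80804924, plus strand, 9 exons). The WT libraries held 27.6, 25.7 and 27.6 FPKM and the KO libraries 32.4, 36.7 and 34.1. All KO values were above all WT values. The mean rose from 27.0 ± 1.09 to 34.4 ± 2.17 FPKM (SD, n = 3 each), a log2 fold change of 0.35 (SE 0.0644, adjusted p of 0.000571 by edgeR). Without KO replicate 2 the log2 fold change was 0.30. Sf3a2 shares 429 exon bases, 16.1% of its exons, with Plekhj1 on the other strand, whose log2 fold change was 0.83, and the counting was run without a strand option. What part reads from Plekhj1 had in the Sf3a2 counts was not tested.

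Sf3a3, the subunit that bridges SF3a to SF3b within the particle (ENSMUSG00000028902.4, chr4:124714776-124732460, plus strand, 17 exons), gave 42.0, 45.3 and 43.8 FPKM in WT and 42.4, 43.0 and 38.7 in KO. The ranges overlapped. Its log2 fold change was -0.08 (95% confidence interval -0.21 to 0.05, adjusted p of 0.293 by edgeR), which leaves room for a fold between 0.863 and 1.04.

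Sf3b1 encodes the HEAT-repeat scaffold of SF3b that grips the branch point, and is the subunit most often mutated in myelodysplastic disease and the target of splicing-modulator drugs (ENSMUSG00000025982.13, chr1:54985169-55027481, minus strand, 25 exons). Among the WT libraries it stood at 49.0, 48.1 and 45.8 FPKM, and among the KO libraries at 39.7, 35.9 and 38.2. The groups did not overlap. The mean fell from 47.7 ± 1.67 to 37.9 ± 1.92 FPKM (SD, n = 3 each), or to a fold of 0.795 (95% confidence interval 0.732 to 0.862) by edgeR. The log2 fold change was -0.33 (SE 0.0544, adjusted p of 0.000228), the lowest of the 8 members, and -0.29 without KO replicate 2.

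Sf3b2, the partner of Sf3b4 and an early contact of the pre-mRNA upstream of the branch point (ENSMUSG00000024853.10, chr19:5273932-5295455, minus strand, 21 exons), was the most abundant member per length. Levels of 73.8, 73.5 and 73.5 FPKM in WT and 76.4, 75.3 and 76.6 in KO made it the steadiest as well. KO values lay just above WT values in every library, yet the log2 fold change was only 0.05 (95% confidence interval -0.06 to 0.15, adjusted p of 0.445 by edgeR).

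Sf3b3, a beta-propeller protein on which SF3b is assembled (ENSMUSG00000033732.10, chr8:110810239-110846787, minus strand, 26 exons), had 32.4, 31.0 and 31.1 FPKM in WT and 27.9, 26.3 and 28.5 in KO. Every KO library was below every WT library. Its mean fell from 31.5 ± 0.757 to 27.5 ± 1.16 FPKM (SD, n = 3 each), with a log2 fold change of -0.19 (SE 0.0525, adjusted p of 0.00753 by edgeR). Leaving out KO replicate 2 gave -0.16.

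Sf3b4, an RNA-binding subunit whose human counterpart is mutated in Nager syndrome (ENSMUSG00000068856.3, chr3:96172332-96177564, plus strand, 6 exons), gave 57.3, 60.1 and 59.4 FPKM in WT and 61.5, 69.1 and 60.8 in KO. KO replicate 2 was the high value, and the lowest KO library was close to the highest WT library. The log2 fold change of 0.11 (95% confidence interval -0.02 to 0.25, adjusted p of 0.159 by edgeR) came to 0.05 without that library.

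Sf3b5, one of the small subunits (ENSMUSG00000078348.4, chr10:13005343-13009183, plus strand), is annotated with 1 exon and therefore no intron. The WT libraries held 14.5, 14.7 and 15.0 FPKM and the KO libraries 17.5, 21.1 and 17.2. The groups did not overlap, and KO replicate 2 was again the highest. The mean rose from 14.7 ± 0.248 to 18.6 ± 2.15 FPKM (SD, n = 3 each), a log2 fold change of 0.33 (SE 0.0784, adjusted p of 0.00331 by edgeR). Without KO replicate 2 this was 0.23 with an adjusted p of 0.00153.

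The order of the levels per length differed between the genotypes. In WT it ran Sf3b2, Sf3b4, Sf3b1, Sf3a3, Sf3b3, Sf3a1, Sf3a2 and Sf3b5, and the only neighbours whose libraries overlapped were Sf3b3 and Sf3a1. In KO it ran Sf3b2, Sf3b4, Sf3a3, Sf3b1, Sf3a2, Sf3a1, Sf3b3 and Sf3b5. There the libraries overlapped between Sf3a3 and Sf3b1, between Sf3b1 and Sf3a2, and between Sf3a1 and Sf3b3. These levels use the length of all annotated exon bases of a gene, which for Sf3b1 is 11370 bases against 6195 in its principal transcript. Per length of the principal transcript, the WT means were 155.8 FPKM for Sf3b2, 87.5 for Sf3b1, 76.0 for Sf3b3, 66.9 for Sf3a3, 66.5 for Sf3b4, 38.4 for Sf3a1, 32.4 for Sf3a2 and 14.7 for Sf3b5. The extremes were the same on both scales, while Sf3b1 and Sf3b3 moved up past Sf3b4. The choice of length has no part in the fold changes.

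Sums over each complex moved less than the ratios of 3 chosen pairs of subunits. The 3 SF3a mRNAs summed to 100.7 to 102.4 FPKM in WT libraries and 102.5 to 106.4 in KO libraries, just without overlap. For the 5 SF3b mRNAs the sums were 224.8 to 227.3 FPKM in WT and 221.3 to 227.7 in KO, with overlap. Both sums use the length of all annotated exon bases, which sets the weight of each member. Whether the genotypes overlap in a sum can therefore change with the choice of length, and is given for this length only. The ratio of Sf3a2 to Sf3a1 was 0.854 to 0.891 in WT and 1.12 to 1.37 in KO. Sf3b5 to Sf3b1 gave 0.297 to 0.328 in WT and 0.440 to 0.587 in KO, and Sf3b1 to Sf3b2 0.624 to 0.664 in WT and 0.476 to 0.519 in KO. None of these 3 ratios overlapped between genotypes. They are descriptions, since the pairs were picked with the fold changes known, and a ratio within a library shows unequal change without showing which gene changed.

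The chromosomes of the members differed in how their genes moved. Of 689 tested genes on chromosome 10, which holds both Sf3a2 and Sf3b5, 66.0% were higher in KO and 8.27% lower, with a median log2 fold change of 0.45. On chromosome 1, which holds Sf3b1, 44.3% of 885 genes were lower and 15.3% higher, with a median of -0.21. Chromosome 3, with Sf3b4, had a median of 0.16, and chromosomes 11, 4 and 19, with Sf3a1, Sf3a3 and Sf3b2, had medians of 0.04, 0.02 and 0.00. Relative to the median of its own chromosome, the log2 fold change was -0.10 for Sf3a2, -0.11 for Sf3b5 and -0.12 for Sf3b1. By rank these members stood at percentiles 40.6, 38.8 and 39.2 of their chromosomes. Chromosome 8 did not move in the direction of Sf3b3, with a median of 0.04 and 19.9% of 794 genes lower, and Sf3b3 stood at -0.23 relative to it, at percentile 26.6. Sf3b2 was the only member above the median of its chromosome, by 0.04. Of the 7 tested genes on chromosome Y, 6 were higher in KO, with a median fitted log2 fold change of 10.0. What part differences between the chromosomes of the lines had in the members' values was not tested.

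**Figure D2:**
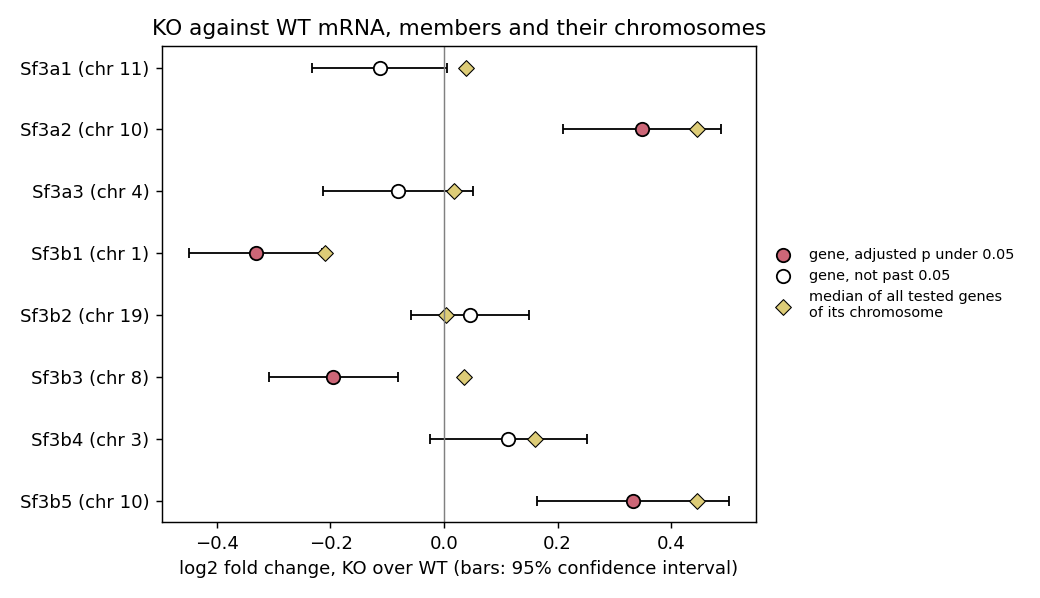
Log2 fold change of KO over WT for each member (circles, with 95% confidence intervals; filled where the adjusted p is under 0.05) and the median of all tested genes of its chromosome (diamonds). Relative to the medians of their chromosomes, Sf3a2, Sf3b5 and Sf3b1 lie at -0.10, -0.11 and -0.12. The intervals of Sf3b3 and Sf3a1 end below the medians of their chromosomes, both 0.04. That of Sf3b1 also ends below its median, though only just, at -0.214 against -0.209.

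Exon length, taken over all annotated exon bases of a gene, also moved with direction. Among called genes, 56.8%, 60.1%, 52.4% and 39.6% were higher in KO over 4 equal bins of genes, from the shortest exon length to the longest. Sf3b1, Sf3b2 and Sf3b3 were in the bin of the greatest exon length, from 6371 bases, and Sf3a2 and Sf3b5 in bin 2 with Sf3a3. The principal transcripts of Sf3b1, Sf3b2 and Sf3b3 are shorter than that, at 6195, 3222 and 4525 bases. The part of length in the members' values was not tested.

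The other spliceosome genes were taken from 7 lists with 72 members, all of which were tested. Of these, 8 rose and 19 fell in KO, 37.5% in all, where 48.7% of all genes were called, and their median log2 fold change was -0.08. Sf3b6, which touches the branch region, and Phf5a, which completes the adenosine pocket with Sf3b1, are the SF3b subunits outside the 8 members. Their log2 fold changes were 0.01 and -0.02, with adjusted p-values of 0.936 and 0.825 by edgeR and overlapping libraries. No SF3b subunit beyond Sf3b1, Sf3b3 and Sf3b5 was therefore called.

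In the U2 core, which holds the U2-specific proteins and the Sm ring that binds spliceosomal RNAs, 3 of 9 genes rose and 2 fell. Thus 55.6% of this list was called, where 48.7% of all genes were. Snrpd3, an Sm protein, went from 19.7 ± 1.88 to 33.1 ± 1.73 FPKM (SD, n = 3 each), with a log2 fold change of 0.74 and an adjusted p of 2.51e-06 by edgeR. Snrpf rose by 0.27 and Snrpb2, which binds a U2 RNA hairpin, by 0.22 on the log2 scale. Snrpg had a log2 fold change of -0.48 and Snrpe one of -0.27, also Sm proteins. Snrpa1, the partner of Snrpb2, had a value of 0.02 with an adjusted p of 0.851.

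Of the 15 factors that bring U2 to the branch point and polypyrimidine tract, 5 were lower and none higher, 33.3% called against 48.7% of all genes, and the median log2 fold change was -0.12. U2af2, the large subunit of the factor that reads the polypyrimidine tract, went from 99.2 ± 1.41 to 84.8 ± 2.96 FPKM (SD, n = 3 each; log2 fold change -0.23, adjusted p of 0.00271 by edgeR). Puf60, a related tract-binding protein, had a log2 fold change of -0.26. The 6 U1 snRNP genes gave 3 lower and none higher, 50% called, where 48.7% of all genes were called and 23.6% were lower. They were led by the U1-associated proteins Luc7l3 at -0.20 and Luc7l at -0.19.

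Among 15 tri-snRNP genes, 2 rose and 3 fell, 33.3% called against 48.7% of all genes. Snrnp200, the helicase that unwinds U4 from U6, had a log2 fold change of -0.40 and Prpf8, the large protein at the catalytic center, one of -0.25, while Snrnp27 was at 0.32 and Txnl4a, a small U5 protein, at 0.30. Of the 17 genes of the Prp19 complex and later steps, 3 rose and 4 fell, 41.2% called. Xab2 was at -0.51 and Aqr, an intron-binding helicase, at -0.37, while Cdc40, a second-step factor, was at 0.45 and Syf2 at 0.35. In the minor spliceosome 2 of 8 fell, Pdcd7 at -0.26 and Rnpc3 at -0.23, and none rose, where 23.6% of all genes were lower. These counts moved when 1 library was left out: 3 genes in place of 8 were higher without WT replicate 1, and 11 in place of 19 were lower without WT replicate 3.

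**Figure D3:**
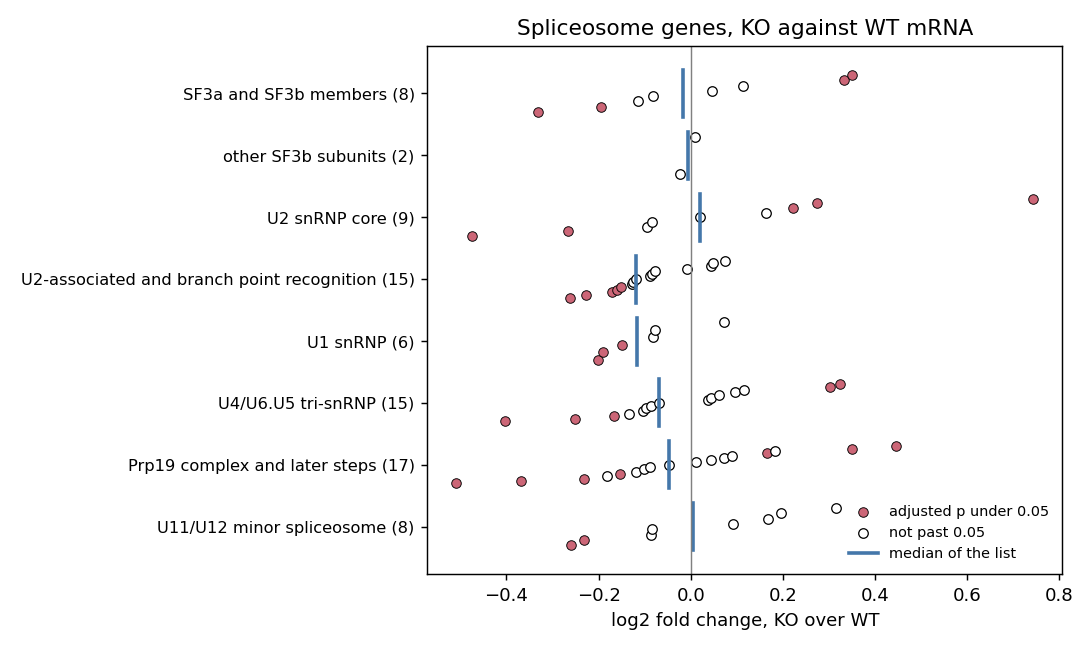
Log2 fold change of KO over WT for the 8 members and the 72 genes of the 7 related lists, with 1 point per gene (filled where the adjusted p is under 0.05), the number of genes in brackets and a blue line at the median of each list. Members and lists spread to both sides of 0, and the U2-associated list has its median at -0.12.

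For Sf3a1 and Sf3b1, the genes most alike in pattern were sought among 10762 genes with a mean count of at least 100. The measure was the mean absolute difference in log2 CPM, centred on each gene's mean, over the 6 mRNA libraries. CPM here are counts scaled by the library total, adjusted by the TMM factors of the edgeR fit. Copa, Rad50 and Xpo6 were closest to Sf3a1, with mean differences of 0.0118, 0.0119 and 0.0150. Slc4a3, Zfp746 and Rrp1b were closest to Sf3b1, with mean differences of 0.0100, 0.0129 and 0.0144. Slc4a3 lies on chromosome 1 like Sf3b1, and Rad50 on chromosome 11 like Sf3a1. The rest lie on other chromosomes than their member, Copa on 1, Xpo6 on 7, Zfp746 on 6 and Rrp1b on 17.

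Promoter sequence lets the 2 members that fell be set beside the others. Of the members, 6 have an entry in the RefSeq promoter table of GRCm38.p6, and Sf3b4 and Sf3b5 do not. The RefSeq start of Sf3a2 differs from the start of the gene span given above, which is at 80798198. The 100 bases nearest the RefSeq start, chr10:80798635-80798734, lie inside that span. In the 250 bases before the start, both strands searched, CCGGAAG, the core that ETS factors bind, occurred in 5 of 6 members, namely Sf3a1, Sf3a2, Sf3a3, Sf3b2 and Sf3b3, and in 6.91% of 32851 promoters. GGGCGG, the GC box, occurred in Sf3a1, Sf3a2 and Sf3b1 and in 32.7% of promoters. TATAAA occurred in Sf3b3 and in 12.4% of promoters. Matches to different motifs did not overlap in the members. The 100 bases nearest the start are shown for the 2 members that fell, in the direction of transcription, with matches to these motifs on either strand in capitals.
Sf3b1, chr1:55027479-55027578, minus strand: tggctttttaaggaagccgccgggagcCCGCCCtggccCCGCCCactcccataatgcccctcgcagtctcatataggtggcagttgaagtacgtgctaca
Sf3b3, chr8:110846804-110846903, minus strand: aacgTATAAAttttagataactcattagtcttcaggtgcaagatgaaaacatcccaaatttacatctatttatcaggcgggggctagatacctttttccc
The Sf3b1 window holds a pair of GC boxes on the opposite strand and the Sf3b3 window holds TATAAA. Neither of these windows holds CCGGAAG, which for Sf3b3 was found outside the window shown. A match describes the letters of the window and does not show binding.

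Circular RNAs were listed for Sf3a1, Sf3a2 and Sf3b3 and for none of the 5 other members. These lists hold only circRNAs with at least 1 read in a library, so a count of 0 means not listed. The whole-cell and cytoplasmic libraries held between 50341 and 81941 junction reads and the nuclear ones between 2189 and 4383, and with 2 libraries a group the values are given without a test. The circle of Sf3b3 exons 16 to 17, 278 bases once spliced, was the most read, with 169 reads. Whole-cell WT libraries gave 17 and 24 reads where KO gave 33 and 8, and cytoplasmic WT libraries gave 5 and 47 where KO gave 24 and 11. The spread between libraries of 1 group was as wide as any difference between genotypes, and no nuclear library listed it. The circle of Sf3b3 exons 18 to 20 had 54 reads, 9 and 12 in WT cytoplasm, 9 and 7 in KO cytoplasm, 3 and 5 in WT whole cells and 3 and 6 in KO whole cells.

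The circle of Sf3a2 exons 7 to 8, 210 bases once spliced, was listed with 0 and 2 reads in WT cytoplasm and with 10 and 9 in KO cytoplasm, and in no other fraction. Its libraries did not overlap, at depths of 77818 and 81941 junction reads for the WT libraries and 50629 and 63335 for the KO libraries. What share of all circRNAs separate in this way, with 2 libraries a group, was not counted. A separation of genotypes among the circles, here or below, is therefore only a description. The 3 Sf3a1 circles, of exons 2 to 3, 3 to 4 and 13 to 15, were listed in whole-cell RNA only. Summed over them, WT had 13 and 18 reads and KO 6 and 11, without overlap. For the circle of exons 2 to 3 WT libraries had 5 and 9 reads and KO libraries 1 and 3, and for that of exons 3 to 4 WT libraries had 3 and 7 and KO libraries 5 and 6.

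Of the other Sf3b3 circles with at least 10 reads, that of exons 17 to 20 had 1 and 1 whole-cell reads in WT and 6 and 3 in KO. That of exons 10 to 17 had 3 and 6 in WT and 1 and 1 in KO. The remaining one, at chr8:110838208-110838481 with its ends off exon edges, was the only circle of a member listed in the nucleus, with 2 and 6 reads in WT against 1 and 2 in KO. Scaled to 100000 junction reads, these were 91.4 and 227.7 in WT against 26.7 and 45.6 in KO. Summed over the 10 circRNAs, cytoplasmic reads came to 14 and 61 in WT and 43 and 27 in KO, and whole-cell reads to 39 and 58 in WT and 49 and 31 in KO. In none of the cytoplasmic and whole-cell sums did the genotypes separate.

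**Figure D4:**
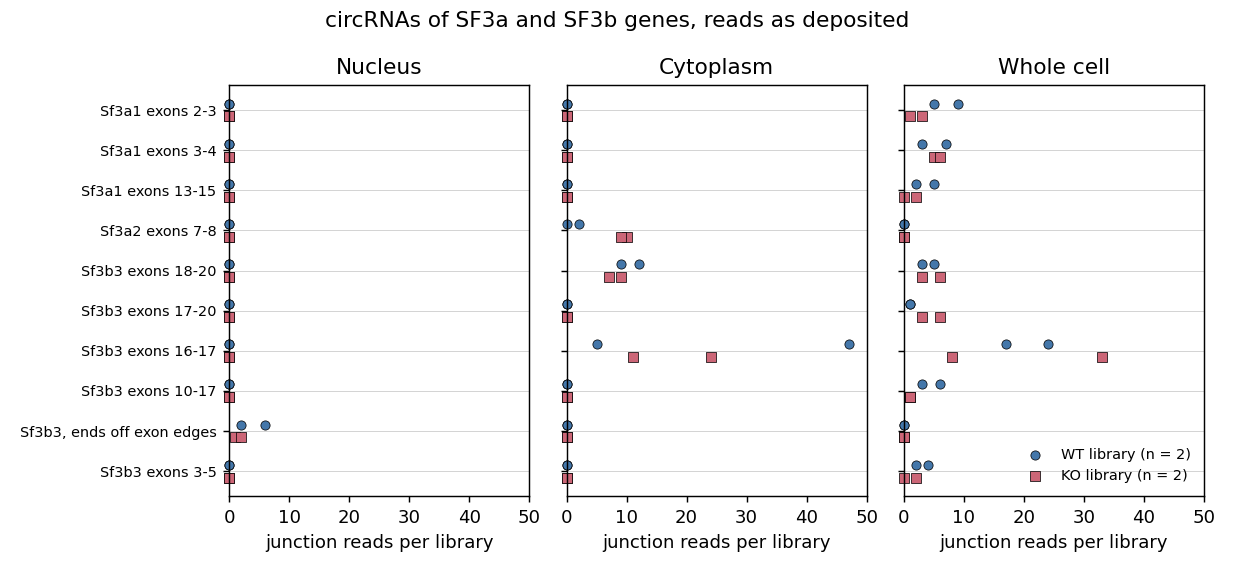
Junction reads per library of the 10 circRNAs of SF3a and SF3b genes in nucleus, cytoplasm and whole cells, on a linear axis with 1 point per library (WT circles, KO squares, 2 each); 0 means not listed. The Sf3b3 circle of exons 16 to 17 spreads from 5 to 47 reads within WT cytoplasm, and the Sf3a2 circle is at 9 and 10 reads in KO cytoplasm against 0 and 2 in WT.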

How the data were processed

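Gene counts from mRNA-seq of 3 WT and 3 KO libraries were analysed. The authors deposited whole-number counts per gene from featureCounts (version 2.0.0, paired mode, no strand option, GENCODE annotation of GRCm38) after HISAT2 alignment, and, for 12 circRNA libraries, counts of junction reads per circRNA from find_circ. Where overlapping genes share bases, such counts are uncertain. FPKM was computed here from the counts and the exon length in the files. KO and WT were compared over 14688 genes with edgeR (version 4.0.16, R 4.3.3; filterByExpr, TMM, glmQLFit, glmQLFTest) and Benjamini-Hochberg adjustment at 0.05, with 95% confidence intervals from the fit. The steps were tested on simulated data. Alternatives covered DESeq2 (version 1.42.0), other scaling, no filter, the replicate number as a block, TPM, principal-transcript length (added after seeing the data) and leaving out each library. Groups came from sample titles. Reads without molecular identifiers are not independent molecules. CircRNAs were assigned by coordinates within the members' spans.

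The members, lists and named-gene rule were chosen with earlier results of these data known. The rule names all members, up to 2 genes a direction with the smallest adjusted p in each related list, Sf3b6, Phf5a, Snrpa1 and Snrpb2, the 3 genes most like Sf3a1 and Sf3b1, Xpo4 and circles with at least 10 reads. Plekhj1 was named for its overlap with Sf3a2, and the Sf3a1 circle of exons 13 to 15 was added to complete the gene.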

Additional observations from a re-analysis of the deposited data

How the results depend on the processing

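Sf3a2 and Sf3b5 were higher and Sf3b1 and Sf3b3 lower past the threshold under all 11 alternatives to the fit, and the other 4 members stayed short of it with the same sign, 88 of 88 recomputed values in all. The widest ranges among called members were 0.23 to 0.39 for Sf3b5 and 0.30 to 0.40 for Sf3a2 (log2 fold change). Over the 6 fits that each left out a library, the count of related genes higher in KO ran from 3 to 10 and that of lower ones from 11 to 24. Same-numbered libraries did not deviate together (correlations of 0.06, 0.04 and -0.09), so the numbers were not taken to pair the samples; with the replicate number as a block, 2 members were higher and 2 lower, 3660 genes were higher and 3464 lower over all genes, and 7 related genes were higher and 18 lower. Xpo4 passed the threshold only without KO replicate 2. Levels in TPM or per principal transcript moved by more than the spread between libraries for 30 of 32 means, by their construction. For circRNAs, scaling to 100000 junction reads took the ratio of KO to WT reads in cytoplasm from 0.933 to 1.38 and in the nucleus from 0.375 to 0.227, where the genotypes touched in raw reads and separated once scaled. The few junction reads, above all in the nucleus, limit what can be said of the circles.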

Other observations

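Of the 72 related spliceosome genes, those on chromosomes 10 and 1 were looked up after the values of these chromosomes had been seen. On chromosome 10 were Snrpd3, Snrpf and Cdc40, with log2 fold changes of 0.74, 0.27 and 0.45, all higher in KO past the threshold by edgeR and with no overlap between KO and WT libraries. On chromosome 1 was Snrpe, which went from 69.7 to 58.0 FPKM in KO, with a log2 fold change of -0.27 and overlapping libraries. Among all 689 tested genes of chromosome 10, 66.0% were higher in KO, and 44.3% of the 885 on chromosome 1 were lower.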
